A study of Homo sapiens with 12 samples.

Results

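The genes described here are 10 genes of the YAP/TEAD arm of the Hippo pathway, chosen by gene symbol: the coactivators YAP1 and WWTR1 (the gene of TAZ), the transcription factors TEAD1 and TEAD4, the target genes CTGF, CYR61 and ANKRD1, and the pathway regulators AMOTL2, AJUBA and LATS2. They are 10 of the 32152 genes in the deposited table, and all 10 were among the 13737 protein-coding genes that were tested. RNA was sequenced from MDA-MB-231 and Hs-578T, established human triple-negative breast cancer cell lines with a mesenchymal phenotype. Each line gave 6 of the 12 libraries, with 2 replicates under each of the labels parental, ERK5-ko and MEK5DD. ERK5-ko cells were made with CRISPR/Cas9 guides to MAPK7, the gene of the kinase ERK5, and were grown from single sorted cells. A single MDA-MB-231 clone survived the sort, and the clone of the Hs-578T libraries is not given in the sources used here. MEK5DD is a mutant of MEK5, the upstream kinase of ERK5, that is active without stimulation, and how the MEK5DD cells were made is likewise not given in the sources used here. RNA was taken at 70% confluence in every group. In MDA-MB-231 the labelled passages were 29 and 30 for parental controls, 7 and 8 for ERK5-ko and 10 and 11 for MEK5DD cells. The parental controls of Hs-578T were at passages 83 and 84 and its 4 other libraries at 8 or 9. Against parental controls, the label, the passage and the cloning thus cannot be told apart.

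YAP and TAZ carry no DNA-binding domain of their own and act on genes through TEAD factors. The kinases LATS1 and LATS2, at the end of the Hippo cascade, phosphorylate YAP and TAZ and keep them out of the nucleus, while adhesion to a stiff matrix and tension on the actin cytoskeleton favour the nuclear form. CTGF, CYR61 and ANKRD1 are widely used as RNA readouts of YAP/TEAD activity, and AMOTL2, AJUBA and LATS2 are both regulators of the pathway and, in many cells, its target genes. RNA levels alone do not show where YAP or TAZ protein was in the cell.

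Values are RPKM, reads scaled to the transcript length in kilobases and to the library total. Library totals recovered from these values lay between 20248162 and 27791195 reads, and the 10 genes had between 88 reads (ANKRD1 in a Hs-578T parental control) and 33810 reads (CYR61) in a library. The genes MFAP4 and B9D1 overlap MAPK7 on the opposite strand and had 74.8% as many reads as it, and the strand setting of the counting is not given in the sources used here. With that limit, MAPK7 RNA was not lower in cells labelled ERK5-ko, with a mean of 17.0 RPKM against 13.8 in MDA-MB-231 parental controls and of 18.0 against 15.0 in Hs-578T, so each direction below refers to the labels. MAP2K5, the gene of MEK5, was 14.1-fold higher in MDA-MB-231 MEK5DD cells and 1.43-fold higher in Hs-578T MEK5DD cells than in parental controls. ESR1 was at or below 0.12 RPKM and PGR at or below 0.348 RPKM in every library, ERBB2 lay between 27.8 and 56.8 RPKM, and VIM was at or above 1598 RPKM and CD44 at or above 819 RPKM throughout. Among markers of other cells, PTPRC did not exceed 0.396 RPKM and PECAM1 6.48 RPKM. The fibroblast genes COL1A1 and PDGFRB, which Hs-578T itself expresses, lay between 5818 and 18528 and between 150.3 and 216 RPKM in Hs-578T, against 2.76 to 6.93 and 1.76 to 14.9 RPKM in MDA-MB-231, and the part of these markers in the results was not tested. The epithelial genes EPCAM, KRT8 and KRT18 spanned 7.08 to 25.7, 595 to 1146 and 328 to 692 RPKM in MDA-MB-231, against 0.0365 to 0.0862, 27.9 to 71.0 and 141 to 596 RPKM in Hs-578T. In Hs-578T, the replicates of parental controls and of MEK5DD cells differed with gene length. The median log2 difference of replicate 2 and replicate 1 ran from -0.14 in the shortest of 5 equal bins of genes to 0.18 in the longest in parental controls and from -0.16 to 0.25 in MEK5DD cells, against a range of -0.10 to 0.07 in the other 4 groups. About the mean of all 12 libraries, the median of the longest bin minus that of the shortest was -0.45 in parental replicate 1 and -0.45 in MEK5DD replicate 1 of Hs-578T, and between -0.06 and 0.25 in the 10 others, so that these 2 libraries stood apart. Mitochondrial genes took 1.60% of the reads of MEK5DD replicate 1 and 0.311% to 0.944% of the other libraries. For the 10 genes, the Hs-578T results that passed against parental controls are therefore also given with both left out. So are others of these genes named below where that changed the call or moved the value by over 1.5 times. This leaves 1 library in each of the 2 groups. The lists of other pathway genes below are not given without these 2 libraries.

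The sequences before CTGF, ANKRD1 and YAP1 are shown because the RNA of these 3 genes rose together in Hs-578T ERK5-ko cells and because all 3 hold the core TEAD motif GGAATG, printed in capitals. They were thus chosen on both traits, and a tie between motif and rise was not tested. AJUBA also rose and holds the motif at a start site, and AMOTL2 holds it and did not pass. CYR61 and TEAD1 rose and have no sequence in the set used here. The set of RefSeq (GRCh38.p14) sequences used here holds the 250 bases before a start site for 7 of the 10 genes, at 10 start sites. All sequences are given on the gene's strand. The sequence was cut where it enters the gene as placed in the deposited table.
CTGF, chr6:131951374-131951622, minus strand: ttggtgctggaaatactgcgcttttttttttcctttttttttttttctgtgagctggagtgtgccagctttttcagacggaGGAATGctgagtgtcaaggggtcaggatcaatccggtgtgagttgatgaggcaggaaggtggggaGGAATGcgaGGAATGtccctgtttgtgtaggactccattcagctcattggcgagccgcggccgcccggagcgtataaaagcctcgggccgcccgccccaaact
ANKRD1, chr10:90921277-90921337, minus strand: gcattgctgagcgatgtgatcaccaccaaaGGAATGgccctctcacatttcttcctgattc
YAP1, chr11:102110197-102110446, plus strand: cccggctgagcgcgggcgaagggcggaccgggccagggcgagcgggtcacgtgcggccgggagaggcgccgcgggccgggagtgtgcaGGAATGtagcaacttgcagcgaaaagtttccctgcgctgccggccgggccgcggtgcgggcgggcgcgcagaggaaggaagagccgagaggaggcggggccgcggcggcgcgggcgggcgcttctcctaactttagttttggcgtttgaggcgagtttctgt

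The CTGF sequence holds GGAATG 3 times, with first bases 169, 104 and 95 bases before the start, and the latter pair is separated by 3 bases. YAP1 holds it once, 162 bases before the start. ANKRD1 holds it 220 bases before the start, as printed, and again 128 bases before it, in the stretch that the deposited table counts to the gene. Searched on both strands in the 250 bases before each start, GGAATG was present at 5 of the 10 start sites, those of CTGF, ANKRD1 and YAP1 and 1 of the 2 start sites each of AMOTL2 and AJUBA. Over all 35116 start sites in the RefSeq set used here, 11.9% held at least 1 match, 0.940% at least 2 and 0.0826% at least 3. The AP-1 motif TGANTCA was found at ANKRD1 only, 195 bases before its start, and in 6.57% of all start sites. No CArG box, the site of the actin-regulated factor SRF, was found at the 10 start sites, against 1.16% of all. These matches describe the letters of the sequence and not binding.

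Within the parental controls, CYR61 had the highest level of the 10 genes in both lines, 692 ± 34.6 RPKM (SD, n = 2) in MDA-MB-231 and 384 ± 20.1 RPKM (SD, n = 2) in Hs-578T. In MDA-MB-231 it was followed by ANKRD1 (159 ± 3.72 RPKM) and CTGF (104 ± 4.28 RPKM), and in Hs-578T by CTGF (232 ± 16.3 RPKM) and WWTR1 (162 ± 11.8 RPKM). LATS2 and TEAD4 were the lowest in MDA-MB-231, at 16.6 ± 0.634 and 15.1 ± 0.624 RPKM, whereas in Hs-578T ANKRD1 was the lowest, at 2.46 ± 0.424 RPKM. The length behind these values was the mean length of a gene's annotated transcripts, and the order of the coactivators depended on it. On the RPKM scale WWTR1 was above YAP1 in MDA-MB-231 (99.3 against 86.1), but per kilobase of the longest GENCODE transcript it was below, at 26.1 against 45.6. In Hs-578T WWTR1 was above YAP1 on both scales, 162 against 39.3 RPKM and 42.7 against 20.8 per kilobase of the longest transcript.

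**Figure D1:**
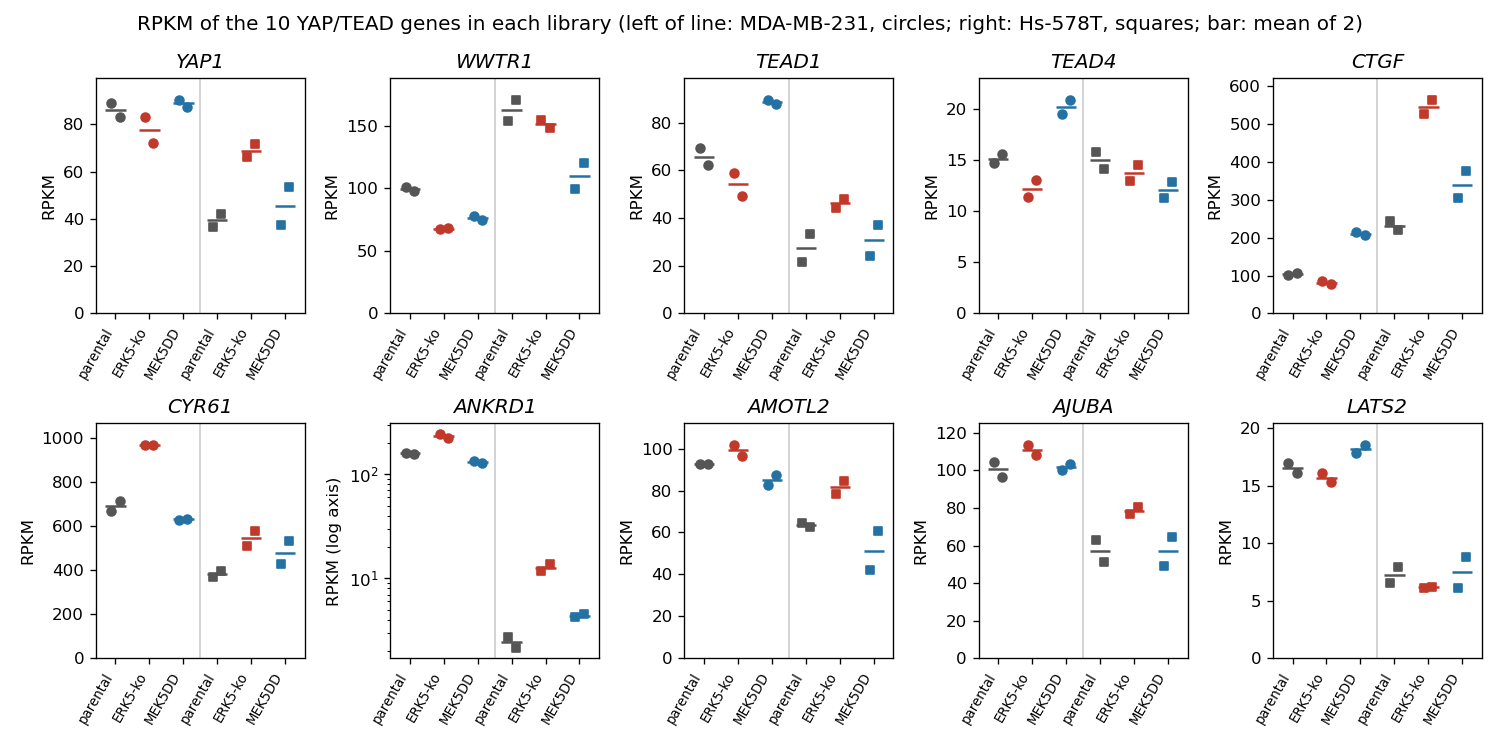
RPKM of each gene (vertical axis, from 0 except for ANKRD1, which has a log axis) in the 12 libraries, with MDA-MB-231 as circles and Hs-578T as squares, grouped by label, and a bar at the mean of 2 libraries. CTGF is highest in Hs-578T ERK5-ko cells (527 and 565 RPKM), and ANKRD1 lies at or above 128 RPKM in MDA-MB-231 and at or below 13.6 RPKM in Hs-578T.

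In comparisons with parental controls, the genes that passed and their directions were not the same in the 2 lines or under the 2 labels. In Hs-578T, 6 of the 10 genes rose in ERK5-ko cells and none fell at an adjusted p under 0.05 (limma), where 19.7% of all tested genes were called higher and 19.7% lower. In MDA-MB-231 ERK5-ko cells 2 rose and 1 fell, where 6.91% of all genes were called higher and 10.4% lower, or 9.18% and 8.20% with median-ratio scaling. In MEK5DD cells 2 genes rose and 1 fell in each line. Of all genes, 17.5% were called higher and 23.8% lower in MDA-MB-231 MEK5DD cells. The shares for Hs-578T MEK5DD cells were 6.44% and 17.0%, or 9.39% and 11.9% with median-ratio scaling. With the study's fold limits (above 1.5 or below 0.5) as a further condition, 4 of the 10 genes passed in Hs-578T ERK5-ko, 0 in MDA-MB-231 ERK5-ko and 1 in each MEK5DD comparison, where 12.6%, 3.87%, 13.9% (MDA-MB-231 MEK5DD) and 4.38% (Hs-578T MEK5DD) of all genes did. The median log2 fold change of the 10 genes was 0.49 in Hs-578T ERK5-ko cells, against 0.01 over all tested genes, and -0.11 in MDA-MB-231 ERK5-ko cells, against -0.04. For MEK5DD it was 0.03 (MDA-MB-231) and 0.10 (Hs-578T), against -0.01 and -0.08 over all genes. Replicates did not overlap between the groups for 9 of the 10 genes in MDA-MB-231 ERK5-ko, 8 in Hs-578T ERK5-ko, 8 in MDA-MB-231 MEK5DD and 6 in Hs-578T MEK5DD cells, where 65.6%, 69.8%, 80.1% and 49.9% of all tested genes did not. The ERK5-ko and MEK5DD comparisons of a line share their parental controls.

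**Figure D2:**
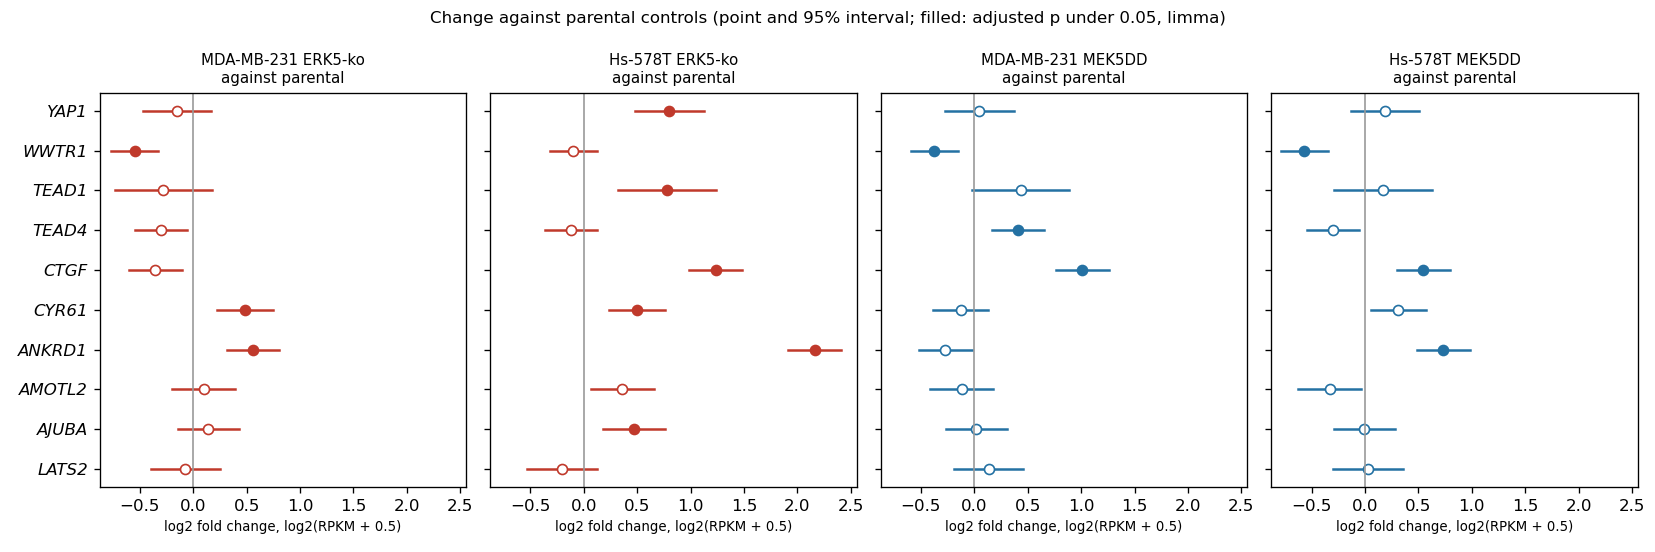
Log2 fold change on the log2(RPKM + 0.5) scale (horizontal axis) with its 95% interval for each gene in the 4 comparisons with parental controls, filled where the adjusted p was under 0.05 (limma). WWTR1 lies below 0 with a filled point in both MEK5DD comparisons (-0.38 and -0.57), and the largest value is that of ANKRD1 in Hs-578T ERK5-ko cells, 2.16.

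CTGF (ENSG00000118523.5, chromosome 6, 131948176 to 131951373 of GRCh38, minus strand), also named CCN2, encodes a secreted matricellular protein and is a direct YAP/TEAD target. In MDA-MB-231 it measured 101 and 107 RPKM in parental controls, 86.5 and 76.7 in ERK5-ko cells and 214 and 207 in MEK5DD cells. In Hs-578T it measured 243 and 220.3 RPKM in parental controls, 527 and 565 in ERK5-ko cells and 304 and 377 in MEK5DD cells. No 2 of the 6 groups overlapped, and CTGF stood lowest in MDA-MB-231 ERK5-ko and highest in Hs-578T ERK5-ko cells. It was 2.02-fold higher in MDA-MB-231 MEK5DD cells than in parental controls (log2 fold change 1.01, standard error 0.114, adjusted p = 2.82e-05, limma). It was 2.35-fold higher in Hs-578T ERK5-ko cells (log2 fold change 1.23, standard error 0.114, adjusted p = 1.16e-05) and 1.47-fold higher in Hs-578T MEK5DD cells (0.55, adjusted p = 0.00584). With only the Hs-578T libraries in the fit, this MEK5DD call was lost (adjusted p = 0.081). In MDA-MB-231 ERK5-ko cells the log2 fold change was -0.35 (95% interval -0.60 to -0.10), which did not pass (adjusted p = 0.0536). It did in 6 of 16 alternatives, among them the fit blocked by replicate number (adjusted p = 0.0354). With parental 1 and MEK5DD 1 of Hs-578T left out, the Hs-578T values were 1.31 for ERK5-ko and 0.77 for MEK5DD.

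CYR61 (ENSG00000142871.15, chromosome 1, 85580761 to 85583962, plus strand), also named CCN1, encodes a related matricellular protein and is a direct target as well. In MDA-MB-231 it measured 667 and 716 RPKM in parental controls, 969.4 and 969.7 in ERK5-ko cells and 629.7 and 634 in MEK5DD cells. Hs-578T libraries were at 369.8 and 398 RPKM in parental controls, 509 and 580.2 in ERK5-ko cells and 427 and 533 in MEK5DD cells. ERK5-ko libraries were thus above the parental controls in both lines, and in Hs-578T they overlapped with MEK5DD libraries. The rise in ERK5-ko cells was 1.40-fold in MDA-MB-231 (log2 fold change 0.49, standard error 0.119, adjusted p = 0.0161) and 1.42-fold in Hs-578T (0.50, standard error 0.119, adjusted p = 0.00625, and 0.45 without the 2 libraries that stood apart). With only the Hs-578T libraries in the fit, the Hs-578T call was lost. The MDA-MB-231 call was lost when any 1 of its 4 libraries was left out (adjusted p from 0.0677 to 0.135), with log2 fold changes of 0.44 to 0.54, and the Hs-578T call was lost without ERK5-ko replicate 2 (0.41, adjusted p = 0.0742). In MEK5DD cells the log2 fold change was -0.13 in MDA-MB-231 (adjusted p = 0.422) and 0.31 in Hs-578T (adjusted p = 0.0807), where it passed with the replicate block (adjusted p = 0.0187) and without the 2 libraries that stood apart (0.42, adjusted p = 0.0185).

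ANKRD1 (ENSG00000148677.6, chromosome 10, 90912096 to 90921276, minus strand) encodes a mechanically induced ankyrin repeat protein best known from cardiac muscle. In MDA-MB-231 it measured 161 and 156 RPKM in parental controls, 244 and 225 in ERK5-ko cells and 135 and 128 in MEK5DD cells. The Hs-578T values were 2.75 and 2.16 RPKM in parental controls, 11.8 and 13.6 in ERK5-ko cells and 4.21 and 4.58 in MEK5DD cells. The 6 groups did not overlap, and in both lines ERK5-ko cells were the highest group. ANKRD1 was 5.17-fold higher in Hs-578T ERK5-ko cells (log2 fold change 2.16, standard error 0.112, adjusted p = 1.50e-07), the largest change among the 10 genes in these 4 comparisons. It was 1.48-fold higher in MDA-MB-231 ERK5-ko cells (log2 fold change 0.56, standard error 0.112, adjusted p = 0.00584). That call was lost without parental replicate 2 (0.54, adjusted p = 0.058) or ERK5-ko replicate 1 (0.50, adjusted p = 0.0582). In Hs-578T MEK5DD cells it was 1.79-fold higher (0.73, adjusted p = 0.00099), and in MDA-MB-231 MEK5DD cells the value was -0.27 (adjusted p = 0.0736). The latter passed as lower in 2 of 16 alternatives, the fit to recovered reads (voom) and that with only the MDA-MB-231 libraries. The Hs-578T MEK5DD call was lost with only that line's libraries in the fit (adjusted p = 0.0529). Without the 2 Hs-578T libraries that stood apart, the Hs-578T log2 fold changes were 2.31 and 0.93.

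YAP1 (ENSG00000137693.13, chromosome 11, 102110461 to 102233423, plus strand) measured 89.2 and 83.1 RPKM in MDA-MB-231 parental controls, 83.1 and 72.1 in ERK5-ko cells and 90.4 and 87.5 in MEK5DD cells. In Hs-578T it measured 36.5 and 42.2 RPKM in parental controls, 66.1 and 71.6 in ERK5-ko cells and 37.6 and 53.3 in MEK5DD cells. Hs-578T ERK5-ko cells were above both other groups of their line and below every MDA-MB-231 group. YAP1 was 1.75-fold higher there than in parental controls (log2 fold change 0.80, standard error 0.145, adjusted p = 0.00127, and 0.70 without the 2 libraries that stood apart). In the other comparisons with parental controls its log2 fold changes lay between -0.15 and 0.19 and did not pass (adjusted p from 0.392 to 0.841). The value for Hs-578T MEK5DD cells, 0.19, was 0.33 without these libraries (adjusted p = 0.0616), and 0.44 with a call without MEK5DD replicate 1 alone (adjusted p = 0.0259), against -0.063 without MEK5DD replicate 2.

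WWTR1 (ENSG00000018408.14, chromosome 3, 149517235 to 149736714, minus strand) measured 101 and 97.9 RPKM in MDA-MB-231 parental controls, 67.1 and 68.2 in ERK5-ko cells and 78.1 and 74.5 in MEK5DD cells. Hs-578T cells had 154 and 171 RPKM in parental controls, 155 and 148 in ERK5-ko cells and 99.0 and 120.3 in MEK5DD cells. MEK5DD cells were below the parental controls in both lines, and ERK5-ko cells only in MDA-MB-231. WWTR1 fell by 31.9% in MDA-MB-231 ERK5-ko cells (log2 fold change -0.55, standard error 0.1002, adjusted p = 0.00355). It fell by 23.1% in MDA-MB-231 MEK5DD cells (-0.38, adjusted p = 0.0104) and by 32.5% in Hs-578T MEK5DD cells (-0.57, adjusted p = 0.0023, and -0.50 without the 2 libraries that stood apart). The Hs-578T MEK5DD call was lost with only that line's libraries in the fit (adjusted p = 0.0574). The MDA-MB-231 MEK5DD call was lost without parental replicate 1 (adjusted p = 0.0712) or MEK5DD replicate 2 (adjusted p = 0.078). In Hs-578T ERK5-ko cells the log2 fold change was -0.10 (95% interval -0.32 to 0.12, adjusted p = 0.471), and -0.17 without the same libraries (adjusted p = 0.0648).

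The TEAD genes encode the DNA-binding factors that YAP and TAZ join. TEAD1 (ENSG00000187079.14, chromosome 11, 12674591 to 12944483, plus strand) measured 69.4 and 62.1 RPKM in MDA-MB-231 parental controls, 59.1 and 49.3 in ERK5-ko cells and 89.6 and 88.0 in MEK5DD cells. Its Hs-578T values were 21.5 and 33.1 RPKM in parental controls, 44.3 and 48.1 in ERK5-ko cells and 24.3 and 37.2 in MEK5DD cells. The spread was widest in the 2 Hs-578T groups whose replicates differed by gene length, and TEAD1 has the longest transcripts of the 10 genes, 3838 bases on average in the deposited values. It was 1.69-fold higher in Hs-578T ERK5-ko cells (log2 fold change 0.78, standard error 0.207, adjusted p = 0.0116). With only that line in the fit, this call was lost. Without the 2 libraries the value was 0.47 (adjusted p = 0.0072), and the call was lost without parental replicate 1 alone (0.47, adjusted p = 0.103) or ERK5-ko replicate 2 (0.72, adjusted p = 0.0878). In MDA-MB-231 MEK5DD cells the groups did not overlap and the log2 fold change of 0.43 passed only with the replicate block (adjusted p = 0.12, and 0.012 with the block) and in 3 other alternatives, those limited to MDA-MB-231 or corrected for length.

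TEAD4 (ENSG00000197905.8, chromosome 12, 2959330 to 3040673, plus strand) measured 14.7 and 15.5 RPKM in MDA-MB-231 parental controls, 11.3 and 13.0 in ERK5-ko cells and 19.5 and 20.9 in MEK5DD cells. In Hs-578T it measured 15.8 and 14.1 RPKM in parental controls, 12.9 and 14.5 in ERK5-ko cells and 11.3 and 12.8 in MEK5DD cells. MDA-MB-231 MEK5DD cells were above every other group, and the 5 other groups overlapped with their neighbours in order of level. TEAD4 was 1.34-fold higher in MDA-MB-231 MEK5DD cells (log2 fold change 0.41, standard error 0.112, adjusted p = 0.0127), a call that was lost without parental replicate 1 (adjusted p = 0.0923) or MEK5DD replicate 2 (adjusted p = 0.096). In Hs-578T MEK5DD cells the log2 fold change was -0.30 (adjusted p = 0.0777, and 0.0454 with the replicate block). It was -0.13 without the 2 libraries that stood apart (adjusted p = 0.51) and passed without MEK5DD replicate 2 (-0.39, adjusted p = 0.0374). ERK5-ko cells gave -0.30 in MDA-MB-231 (adjusted p = 0.0888) and -0.12 in Hs-578T (adjusted p = 0.42), or -0.043 without the 2 libraries.

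AJUBA (ENSG00000129474.15, chromosome 14, 22971174 to 22982642, minus strand) encodes a LIM-domain protein that binds and restrains LATS kinases at tensed junctions. It measured 76.6 and 80.6 RPKM in Hs-578T ERK5-ko cells against 62.7 and 51.1 in parental controls, a 1.38-fold rise (log2 fold change 0.47, standard error 0.130, adjusted p = 0.0144, and 0.62 without the 2 libraries that stood apart). This rise did not pass with only the Hs-578T libraries in the fit. The call was lost without parental replicate 2 (0.32, adjusted p = 0.098) or ERK5-ko replicate 2 (0.43, adjusted p = 0.0969). All other AJUBA libraries lay between 49.1 and 64.7 RPKM in Hs-578T MEK5DD and between 96.6 and 114 RPKM in MDA-MB-231, and no other comparison with parental controls passed. Without the 2 libraries that stood apart, AJUBA passed as higher in Hs-578T MEK5DD cells (0.34, adjusted p = 0.0259), against -0.0060 with all libraries. An overlapping gene on the same strand, RP11-298I3.5, had 13.3% as many reads as AJUBA, and how reads in overlaps were assigned is not given in the sources used here.

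AMOTL2 (ENSG00000114019.14, chromosome 3, 134355874 to 134375479, minus strand) encodes an angiomotin-like scaffold that binds YAP and F-actin. It measured 78.6 and 84.8 RPKM in Hs-578T ERK5-ko cells against 64.7 and 62.4 in parental controls, without overlap (log2 fold change 0.36, 95% interval 0.06 to 0.65, adjusted p = 0.0535). This difference passed with the replicate block (adjusted p = 0.0272) and without the 2 libraries that stood apart (0.38, adjusted p = 0.00267). Hs-578T MEK5DD libraries were at 42.2 and 60.5 RPKM (-0.33, adjusted p = 0.103), and this value rested on single libraries. It was -0.59 and passed without MEK5DD replicate 2 (adjusted p = 0.000847), -0.071 without MEK5DD replicate 1 and -0.044 without the 2 libraries that stood apart. MDA-MB-231 libraries lay between 82.8 and 102 RPKM, with log2 fold changes of 0.10 for ERK5-ko and -0.12 for MEK5DD that did not pass.

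LATS2 (ENSG00000150457.8, chromosome 13, 20973032 to 21061547, minus strand), the kinase gene of the set, passed in no comparison with parental controls. It lay between 15.3 and 18.5 RPKM in MDA-MB-231 and between 6.11 and 8.81 RPKM in Hs-578T, so the lines did not overlap. Its log2 fold changes were between -0.20 and 0.13 in the 4 comparisons (adjusted p from 0.296 to 0.921). In Hs-578T ERK5-ko cells the value of -0.20 (95% interval -0.53 to 0.12) became -0.34 without the 2 libraries that stood apart, and then passed (adjusted p = 0.0141).

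The change in ERK5-ko cells was set against that in the other line by a contrast of contrasts, tested over 6 group means. For 5 of the 10 genes the difference passed, each with the lower value in MDA-MB-231. Over all genes 18.3% passed with the higher value in MDA-MB-231 and 21.5% with the lower. With the study's fold limits 3 of the 10 genes passed, against 20.7% of all genes. CTGF differed by -1.59 on the log2 scale (standard error 0.161, adjusted p = 2.72e-05) and ANKRD1 by -1.60 (standard error 0.159, adjusted p = 2.41e-05). YAP1 differed by -0.95 (adjusted p = 0.00376), TEAD1 by -1.06 (adjusted p = 0.0144) and WWTR1 by -0.45 (adjusted p = 0.0257). The WWTR1 call was lost with median-ratio scaling and without any 1 of 7 of its 8 libraries, and the TEAD1 call without any 1 of 3 of its 8 libraries. Without the 2 Hs-578T libraries that stood apart, AMOTL2 differed by -0.29 and AJUBA by -0.48, against -0.26 and -0.33 with all libraries, which did not pass. The CTGF libraries moved in opposite directions in the 2 lines, whereas ANKRD1 was higher in ERK5-ko cells of both and differed in size. CYR61 gave almost the same value in both lines, with a difference of -0.01 and a 95% interval of -0.38 to 0.36, or 0.040 without the same libraries.

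For MEK5DD cells the difference between lines passed for 3 genes, 2 with the higher value in MDA-MB-231 and 1 with the lower, where 21.3% and 18.2% of all genes did so. TEAD4 differed by 0.71 (standard error 0.159, adjusted p = 0.00462) and ANKRD1 by -1.01 (standard error 0.159, adjusted p = 0.0005). CTGF rose in MEK5DD cells of both lines and differed by 0.46 in favour of MDA-MB-231 (adjusted p = 0.0387), a call that was lost without the 2 Hs-578T libraries that stood apart (0.24, adjusted p = 0.143) and without any 1 of 6 of its 8 libraries (adjusted p from 0.072 to 0.128), the exceptions being replicate 2 of either Hs-578T group. CYR61 differed by -0.44 (adjusted p = 0.0558, and 0.0122 with the replicate block). Without the 2 libraries it passed (-0.55, adjusted p = 0.00562), as did AJUBA (-0.32, adjusted p = 0.0366). For WWTR1, which fell in both lines, the difference was 0.19 (95% interval -0.12 to 0.50, adjusted p = 0.312), or 0.13 without them.

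**Figure D3:**
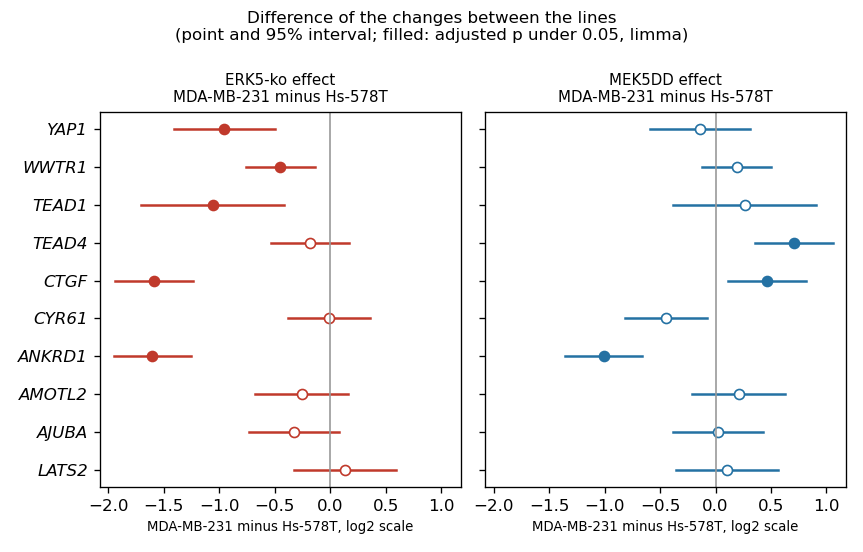
Difference of the log2 fold changes between the lines (horizontal axis, MDA-MB-231 minus Hs-578T) with its 95% interval, for ERK5-ko on the left and MEK5DD on the right, filled where the adjusted p was under 0.05 (limma). CTGF is at -1.59 for ERK5-ko and at 0.46 for MEK5DD, and CYR61 is at -0.01 and -0.44.

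ERK5-ko and MEK5DD cells were also compared directly, which uses no parental control and, in Hs-578T, sets libraries with the same passage labels against each other. In MDA-MB-231, CTGF (log2 difference -1.36, adjusted p = 1.51e-06), TEAD1 (-0.71, adjusted p = 0.012) and TEAD4 (-0.71, adjusted p = 0.000232) were lower in ERK5-ko than in MEK5DD cells. CYR61 (0.62, adjusted p = 0.000928) and ANKRD1 (0.83, adjusted p = 7.07e-05) were higher. Of all genes, 27.1% were called higher and 27.9% lower in this comparison, and 23.6% passed with the study's fold limits, as did 3 of the 10 genes. Replicates did not overlap for any of the 10 genes, nor for 81.2% of all genes. The TEAD1 call was lost without ERK5-ko replicate 2 (-0.58, adjusted p = 0.0943), MEK5DD replicate 1 (-0.70, adjusted p = 0.0588) or MEK5DD replicate 2 (-0.73, adjusted p = 0.0504). In Hs-578T, 7 of 10 genes were higher in ERK5-ko cells and none lower, where 30.7% of all genes were called higher and 19.2% lower, or 23.5% and 24.9% with median-ratio scaling. ANKRD1 was 2.89-fold (log2 difference 1.43, adjusted p = 1.81e-06), CTGF 1.60-fold (0.69, adjusted p = 0.00046) and AMOTL2 1.59-fold higher (0.69, adjusted p = 0.00147). YAP1 (0.61), WWTR1 (0.47), TEAD1 (0.61) and AJUBA (0.48) were the others. Without the 2 Hs-578T libraries that stood apart, these 7 values were 1.38, 0.53, 0.43, 0.36, 0.33, 0.31 and 0.28 in the same order, and all passed. LATS2 then passed as lower in ERK5-ko cells (-0.48, adjusted p = 0.0019, against -0.23 with all libraries), as it did with quantile normalization (-0.36) and with length correction (-0.34). Replicates did not overlap for 8 of the 10 genes, against 71.7% of all genes. The TEAD1 call was lost with median-ratio scaling (0.49, adjusted p = 0.0623), quantile normalization, no filter on low values or only the libraries of the line. It was also lost without ERK5-ko replicate 1 (0.67), ERK5-ko replicate 2 (0.55) or MEK5DD replicate 1 (0.31). AJUBA no longer passed with only the libraries of the line, without ERK5-ko replicate 2 (0.44) or without MEK5DD replicate 1 (0.28).

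Between the parental controls, 9 of the 10 genes differed. MDA-MB-231 had the higher level for 7 of them and the lower for 2, where 46.0% and 31.3% of all genes were so called, or 37.0% and 38.9% with median-ratio scaling. ANKRD1 was 64.6-fold higher in MDA-MB-231 (log2 difference 5.76, standard error 0.112, adjusted p = 1.59e-12). TEAD1 was 2.41-fold, LATS2 2.29-fold and YAP1 2.19-fold higher, followed by CYR61 (1.80-fold), AJUBA (1.77-fold) and AMOTL2 (1.46-fold). CTGF was 55.0% lower in MDA-MB-231 (-1.15, adjusted p = 2.16e-06) and WWTR1 38.9% lower (-0.71, adjusted p = 4.75e-05). The median of all tested genes was 0.19 higher in MDA-MB-231 on the log2 scale and -0.02 with median-ratio scaling, and the 9 genes passed under both. These 9 genes also had no overlap of replicates, as had 88.9% of all genes. TEAD4 was at 15.1 RPKM in MDA-MB-231 and at 15.0 RPKM in Hs-578T (difference 0.01, 95% interval -0.23 to 0.26, with -0.21 under median-ratio scaling and 0.092 without the 2 libraries that stood apart).

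Other genes of the pathway were counted in 4 lists, chosen like the 10 genes with earlier results of these data known. Among 18 further genes described as YAP/TEAD targets, 12 rose and 2 fell in Hs-578T ERK5-ko cells, with a median log2 fold change of 0.54 against 0.01 over all tested genes, of which 19.7% were called higher and 19.7% lower. F3, the gene of tissue factor, was 2.28-fold higher and EDN1, the gene of endothelin-1, 2.05-fold higher, while IGFBP3, a binding protein of insulin-like growth factors (-0.70), and FOXF2, a forkhead factor (-0.61), fell most. In MDA-MB-231 ERK5-ko cells 3 rose and 2 fell, with a median of 0.09, beside 6.91% of all genes called higher and 10.4% lower. F3 rose 2.42-fold and TGFB2, a transforming growth factor, 2.22-fold, and NT5E, the ectonucleotidase CD73, and IGFBP3 fell to 0.609 and 0.614 of the parental level. In MDA-MB-231 MEK5DD cells 7 rose and 6 fell (median 0.00), beside 17.5% and 23.8% of all genes. IGFBP3 rose 4.25-fold and CCDC80 1.87-fold, and F3 fell to 0.437 of the parental level. In Hs-578T MEK5DD cells 5 rose and 1 fell (median 0.11), beside 6.44% and 17.0% of all genes, with EDN1 higher by 0.92 on the log2 scale and IGFBP3 at 0.728 of the parental level. The rises outnumbered the falls by most in Hs-578T ERK5-ko cells, as the plot of the gene lists shows.

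Of 18 Hippo kinases and adaptors, 8 rose and none fell in Hs-578T ERK5-ko cells (median 0.44), beside the 19.7% of all genes called in each direction, led by WWC2 (2.02-fold) and NF2 (1.72-fold), both upstream activators of LATS kinases. None of the 18 passed in ERK5-ko cells of MDA-MB-231 (median -0.09), and 2 fell with the replicate block. There 6.91% of all genes were called higher and 10.4% lower, and with the block 1388 and 2053 of the 13737 tested genes. In MDA-MB-231 MEK5DD cells NF2 (1.66-fold) and FRMD6 (1.47-fold) rose and 3 genes fell, among them LATS1 to 0.631 and LIMD1 to 0.658 of the parental level. Of all genes 17.5% were called higher and 23.8% lower there. Under the block 3 of the 18 rose and 5 fell, and 2917 and 3695 of the 13737 tested genes did. AMOT fell to 0.177 (0.336 against 1.90 RPKM) and WWC1 to 0.652 (2.37 against 3.64 RPKM) in Hs-578T MEK5DD cells, and none rose. Over all genes 17.0% were called lower and 6.44% higher there. Of 5 TEAD partners 4 were tested, since VGLL1 had at most 1 read in a library. TEAD2 fell to 0.747 and VGLL4, a competitor of YAP for TEAD, to 0.625 in Hs-578T ERK5-ko cells, and VGLL3 rose 2.28-fold in MDA-MB-231 MEK5DD cells. No TEAD partner passed in MDA-MB-231 ERK5-ko cells, where 1 did with the replicate block, or in Hs-578T MEK5DD cells. The shares of all genes called in these comparisons, and the counts with the block, are those given above for the kinases and adaptors.

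Among 8 genes of the actin cytoskeleton and its factor SRF, 6 rose and none fell in Hs-578T ERK5-ko cells (median 0.72), beside the 19.7% of all genes called in each direction. ACTA2, smooth muscle actin, rose 3.39-fold and TAGLN, transgelin, 2.54-fold. In MDA-MB-231 ERK5-ko cells ACTA2 rose 1.95-fold and TAGLN fell to 0.330, at means of 5.68 and 1.28 RPKM, and 3 rose and 1 fell with the replicate block. Over all genes 6.91% were called higher and 10.4% lower there, and with the block 1388 and 2053 of the 13737 tested genes. In MEK5DD cells TAGLN rose in both lines, 2.99-fold in MDA-MB-231 and 2.07-fold in Hs-578T, and 3 genes rose and 1 fell in each, where the shares of all genes called higher and lower were 17.5% and 23.8% for MDA-MB-231, 6.44% and 17.0% for the other line. CNN2 rose 1.58-fold and MYL9 fell to 0.570 in MDA-MB-231, and CNN1 rose 5.42-fold and ACTA2 fell to 0.403 in Hs-578T.

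**Figure D4:**
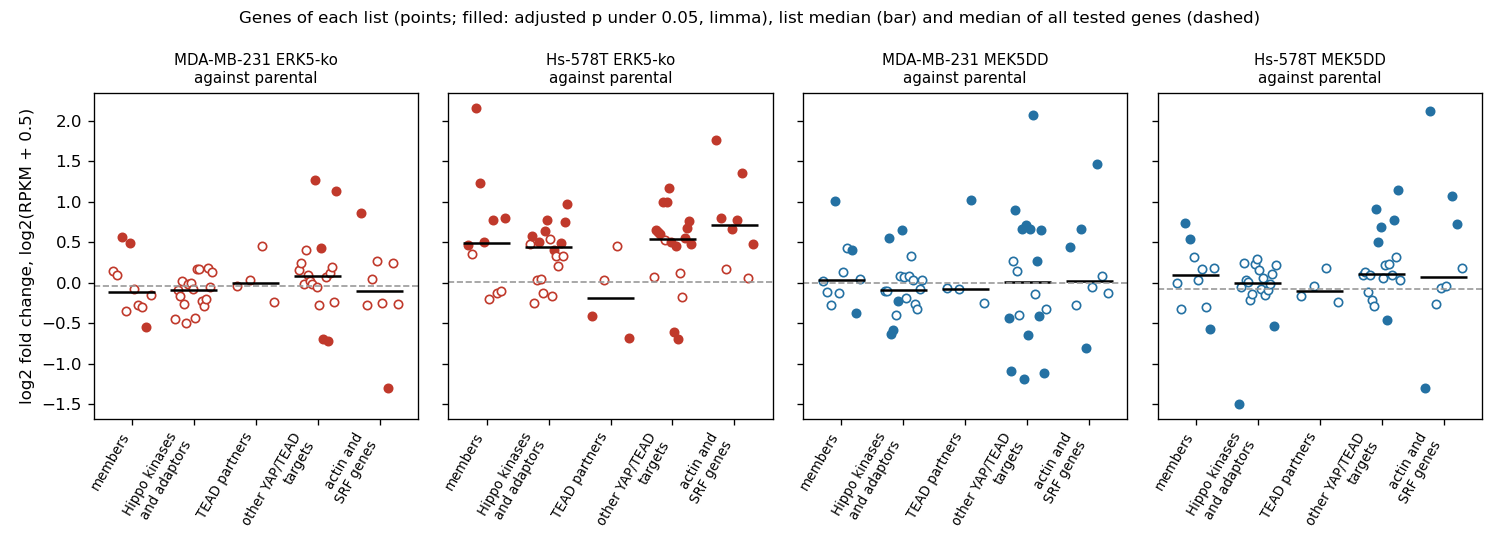
Log2 fold change on the log2(RPKM + 0.5) scale (vertical axis) of every tested gene in the 10-gene set and in 4 lists of pathway genes, filled where the adjusted p was under 0.05 (limma), with the list median as a bar and the median of all tested genes dashed. The Hs-578T ERK5-ko panel has the highest medians for the 10 genes (0.49), the Hippo kinases (0.44), the other targets (0.54) and the actin genes (0.72).

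The genes most like CTGF, CYR61 and ANKRD1 across the 12 libraries were found by the root mean square difference of log2(RPKM + 0.5) after centring each line. For CTGF these were SGK1, a serum- and glucocorticoid-induced kinase (0.106 log2 units), SCLT1 (0.153) and DLC1 (0.159), against a median of 0.583 over all tested genes. SGK1 averaged 35.4, 24.3 and 65.4 RPKM in MDA-MB-231 parental, ERK5-ko and MEK5DD cells and 11.1, 25.1 and 15.2 RPKM in Hs-578T. For CYR61 they were NOG (0.101), TMEM41B (0.102) and PAWR (0.106), against a median of 0.354, and NOG was below 1 RPKM in Hs-578T. In log2 units ANKRD1 had no neighbour as close, with CA13 at 0.208, the keratin gene KRT18 at 0.248 and VNN1 at 0.290, against a median of 0.720. These distances were not scaled to a gene's own root mean square about its line means. That was 0.686 for ANKRD1, 0.549 for CTGF and 0.252 for CYR61. KRT18 averaged 370.1, 682 and 328 RPKM in MDA-MB-231 and 177, 571 and 175 RPKM in Hs-578T, in the same order. These likenesses are descriptions over 6 groups of 2 libraries, and no test was made of them.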

How the data were processed

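RNA of 2 established cell lines gave 12 libraries, made with a kit that keeps the strand per the labels, and each of the 12 value columns has its sample. The submitters' processing notes name Trimmomatic 0.32, TopHat2 2.1.1, R 3.3.1, DESeq2 1.12.4 and the build GRCh38. The strand setting of the counting is not given in the sources used here. The deposited RPKM values are reads of a gene that the authors divided by its length in kilobases and by the size of the library. Whole reads and library totals were recovered from them: all 32152 genes gave whole reads within 0.0001, against 0 of 200 control genes with totals set 1% off. The length used is the mean length of a gene's annotated transcripts, since 100% of 7933 genes with the same identifier in GENCODE 29 and at least 100 reads in every library lay within 1% of it. Across genes, the 2 libraries of each group differed by more than counting alone gives, with a chi-square per degree of freedom of 2.82 to 42.2. The part of counting in the spread of the 10 genes was not computed.

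The 13737 protein-coding genes that reached 0.5 RPKM in 2 or more libraries were tested. limma 3.58.1 (R 4.3.3) was run on log2(RPKM + 0.5) with a mean for each of 6 groups, a variance trend and 6 residual degrees of freedom. Adjustment for multiple tests (Benjamini-Hochberg) covered all tested genes of a comparison, separately for 9 comparisons, and a gene passed at an adjusted p under 0.05. Fold changes are ratios of mean RPKM, and log2 fold changes are on the log2(RPKM + 0.5) scale, which understates changes at low RPKM. An exact permutation test of 2 libraries against 2 cannot give a two-sided p below 0.333. On simulated data for the MDA-MB-231 ERK5-ko comparison with 13737 genes, 91% of 200 genes changed by a factor of 2 were called, as were 6 of 13537 unchanged genes. The simulation had a single dispersion for all genes and groups, equal means in both lines and no trend with gene length. In the real groups the SD of the log2 replicate difference ran from 0.133 to 0.317, so these rates need not hold for them.

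The 10 genes, the pathway lists and the tests were chosen with earlier results of these data known. All 10 genes are named with their values. In each list at most the 2 largest rises and the 2 largest falls that passed are named per comparison with parental controls, and 3 like genes are named for CTGF, CYR61 and ANKRD1. A gene of the target list that this rule would name is not reported here, though it is in the list's counts. Nothing says whether replicates came from separate cultures, so p values measure only the spread between these libraries, which may be technical. Replicates 1 and 2 carry consecutive passage labels, and the deviations of libraries of the same number and line correlated between 0.107 and 0.541 across genes over 6 pairs of groups, so blocked values are given where they change a call. Alternatives changed the pseudocount (0.1 or 1), the filter, the scaling, the gene types, the fold limits, the libraries in the fit, the replicate block and the model (voom on recovered reads). A length correction and the fit without Hs-578T parental 1 and MEK5DD 1 were added after seeing the data. Promoter sequences came from RefSeq. Tables and plots were made in Python 3.11.15 with pandas 2.3.3, numpy 2.4.6 and matplotlib 3.10.9.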

Additional observations from a re-analysis of the deposited data

Results flagged for a closer look

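By a test of the difference itself (limma, adjusted over all tested genes), 5 of the 10 genes differed between the lines for ERK5-ko and 3 for MEK5DD. Of all tested genes, 18.3% passed with the higher value in MDA-MB-231 and 21.5% with the lower for ERK5-ko. The shares for MEK5DD were 21.3% and 18.2%. For ERK5-ko, MDA-MB-231 minus Hs-578T, the log2 differences were -0.95 for YAP1, -0.45 for WWTR1, -1.06 for TEAD1, -1.59 for CTGF and -1.60 for ANKRD1. Without Hs-578T parental 1 and MEK5DD 1 they were -0.85, -0.38, -0.76, -1.66 and -1.75. AMOTL2 and AJUBA, which did not pass with all libraries, were then at -0.29 and -0.48. The WWTR1 difference lost its call with median-ratio scaling (-0.36, adjusted p = 0.0523) and without any 1 of 7 of its 8 libraries (adjusted p from 0.0566 to 0.0856), the exception being Hs-578T parental replicate 2. The TEAD1 difference lost it without MDA-MB-231 parental replicate 1, MDA-MB-231 ERK5-ko replicate 2 or Hs-578T ERK5-ko replicate 2 (adjusted p from 0.0553 to 0.063).

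For MEK5DD the differences were 0.71 for TEAD4, 0.46 for CTGF and -1.01 for ANKRD1, and 0.54, 0.24 and -1.21 without the same 2 libraries, where CTGF no longer passed. MAP2K5 was at 186 RPKM in MDA-MB-231 and at 22.5 RPKM in Hs-578T MEK5DD cells, and its part in these differences was not tested. With 2 libraries per group, single outlying libraries could not be tested for.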

How the results depend on the processing

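Over 90 log2 fold changes (10 genes in 9 comparisons) and 1550 values under the alternatives, 1398 kept direction and side of the threshold, 53 no longer passed, 59 passed newly and 40 changed sign. The 15 results with a change of sign did not pass in the reported fit, and their sizes were at most 0.26. The study's fold limits left 0 of the 10 genes in MDA-MB-231 ERK5-ko, 1 in each MEK5DD comparison, 3 in MDA-MB-231 ERK5-ko against MEK5DD and 3 for the ERK5-ko difference between lines. With only the libraries of a line, 3 of 10 passed in Hs-578T ERK5-ko, 5 in MDA-MB-231 MEK5DD and 8 in MDA-MB-231 ERK5-ko against MEK5DD. In Hs-578T MEK5DD 0 passed (WWTR1, CTGF and ANKRD1 had adjusted p of 0.0574, 0.081 and 0.0529). Of the 13737 tested genes, 3043, 7266, 8944 and 900 passed in the same order. With the replicate block 5 passed in Hs-578T MEK5DD, where 4273 of the 13737 tested genes did. The block otherwise added CTGF in MDA-MB-231 ERK5-ko, AMOTL2 in Hs-578T ERK5-ko, TEAD1 in MDA-MB-231 MEK5DD and CYR61 in the MEK5DD difference, and changed no other call. Calls in Hs-578T MEK5DD also changed without Hs-578T parental 1 and MEK5DD 1. With length correction and block, 5 passed in MDA-MB-231 ERK5-ko, 6 in Hs-578T MEK5DD and 5 in the MEK5DD difference. Of all 13737 tested genes, 3887, 4722 and 6840 did. Leaving out 1 library, which leaves 1 in a group, lost or added calls in each comparison with parental controls and in both differences between lines. Over all tested genes, the calls were 2379 in MDA-MB-231 ERK5-ko against 4065 with only that line, 3887 with length correction and block and 1012 to 1258 without 1 library. With only their line they were 3043 in place of 5413 in Hs-578T ERK5-ko, 900 in place of 3213 in Hs-578T MEK5DD and 4459 in place of 6866 between these, and 3157 in Hs-578T ERK5-ko without ERK5-ko replicate 2. voom on the recovered reads called 2516 and 5495 genes in the ERK5-ko comparisons of MDA-MB-231 and Hs-578T.

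Changes of sign came with median-ratio scaling, quantile normalization, the fit without both Hs-578T libraries and length correction without or with the block for AJUBA in Hs-578T MEK5DD (0.084, 0.077, 0.34, 0.011 and 0.011). The same 2 scalings gave -0.21 and -0.20 for TEAD4 between parental controls and -0.028 and -0.056 for AJUBA in the MEK5DD difference, and median-ratio scaling gave 0.08 for CYR61 in the ERK5-ko difference. Without both Hs-578T libraries, CYR61 was 0.040 in the ERK5-ko difference, and AMOTL2, AJUBA and LATS2 were -0.076, -0.32 and -0.0098 in the MEK5DD difference. The 2 sign changes that passed were those of AJUBA without both libraries (adjusted p = 0.0259 and 0.0366). Leaving out 1 library gave YAP1 -0.0037 to 0.098 and AJUBA -0.038 to 0.075 in MDA-MB-231 MEK5DD. In Hs-578T MEK5DD it gave YAP1 -0.063 to 0.44, TEAD1 -0.14 to 0.47, AJUBA -0.20 to 0.19 and LATS2 -0.22 to 0.27. It gave LATS2 -0.48 to 0.015 in Hs-578T ERK5-ko against MEK5DD, TEAD4 -0.065 to 0.092 between parental controls, and CYR61 -0.11 to 0.08 and LATS2 -0.0028 to 0.26 in the ERK5-ko difference. In the MEK5DD difference it gave YAP1 -0.39 to 0.11, TEAD1 -0.043 to 0.57, AMOTL2 -0.050 to 0.47, AJUBA -0.17 to 0.22 and LATS2 -0.14 to 0.35. The cause of these changes was not tested. A comparison that leaves 1 library in a group assumes that it varies like the others.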
